A study of Mus musculus with 8 samples.

Results

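The neutrophil-attracting CXC chemokines *Cxcl1*, *Cxcl2*, *Cxcl3*, *Cxcl5*, *Cxcl15* and *Cxcl17* were taken by gene symbol, and they made up 6 of the 55416 gene identifiers in the count files. CXC chemokines are small secreted proteins that guide leukocytes. Those that carry the amino acids glutamate, leucine and arginine (ELR) in front of their first cysteines bind CXCR2 on neutrophils and draw these cells out of the blood along a gradient held by glycosaminoglycans of the vessel wall and tissue. In the lung they are made by macrophages, epithelium and endothelium when Toll-like receptor 4 senses lipopolysaccharide (LPS), or in answer to tumor necrosis factor and cytokines of the interleukin-1 and interleukin-17 families, largely through NF-kB, and several of their transcripts are short-lived. *Cxcl1*, *Cxcl2*, *Cxcl3* and *Cxcl5* encode inducible ELR chemokines, *Cxcl15* encodes lungkine, an ELR chemokine known from lung epithelium, and *Cxcl17* encodes a mucosal chemokine without the ELR letters that is known more for attracting macrophages and dendritic cells.

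RNA-seq of lung tissue, taken from 1 side of the lung according to the methods, was available from 8 mice, described as female C57BL/6J aged 6 to 8 weeks. The 3 control mice, numbered 1, 2 and 4, received dimethyl sulfoxide (DMSO) intravenously and then saline into the peritoneum. The 3 LPS mice, numbered 1, 6 and 7, received LPS at 35 mg/kg, and the 2 dual-treated mice, numbered 2 and 5, received YW3-56, an inhibitor of protein arginine deiminases, at 10 mg/kg in DMSO 30 minutes before the same LPS. Lungs were taken 24 h after LPS. The methods do not state that mice given LPS alone also received DMSO, so a difference between dual-treated and LPS lungs cannot be told apart from one due to the vehicle, and they speak of 3 sequenced mice per group where the labels give 2 for the dual treatment. Total counts per library ran from 19061949 to 20908608, and values per mouse are CPM, counts divided by the library total with TMM scaling, for which 3 counts correspond to between 0.132 and 0.178 CPM. The p-values measure the spread between these mice, and in RNA of mixed lung cells a change in the number of cells of a type and a change in RNA per cell cannot be told apart.

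Transcripts of lung epithelium were high in all 8 libraries, at 8322 to 24535 CPM for the surfactant gene *Sftpc* and 22675 to 65313 CPM for the club cell gene *Scgb1a1*. Of the LPS libraries, 2 stood apart. The 16 listed transcripts of squamous epithelium summed to 882 CPM in LPS mouse 6 and 2294 CPM in LPS mouse 7, against 37.0 CPM in LPS mouse 1, 43.8 to 57.3 CPM in control and 55.0 and 80.7 CPM in dual-treated mice 2 and 5. The keratin gene *Krt13*, with the highest mean of the 16 over the 8 libraries, had 286 and 887 CPM in LPS mice 6 and 7 and less than 1 CPM in the other 6 libraries. The 10 listed transcripts of skeletal muscle summed to 597 and 1379 CPM in LPS mice 6 and 7, against 54.2 CPM in LPS mouse 1, 26.8 to 71.9 CPM in control and 16.0 and 15.8 CPM in the dual-treated mice, and *Acta1* had their highest mean. LPS mice 6 and 7 thus carried more transcripts of squamous epithelium and muscle than any other mouse. The log2FC of each chemokine against or within the LPS group is therefore also given with LPS mouse 1 as the only LPS library, which is then assumed to vary like the other groups. Receptor, list and marker results were computed with all 3 LPS mice only.

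With LPS, 5 of the 6 chemokine transcripts rose and *Cxcl15* fell. By edgeR's quasi-likelihood test at a Benjamini-Hochberg adjusted p under 0.05, 32.6% of the 18560 tested genes were higher in LPS than in control lungs and 33.9% were lower. The 5 ELR chemokine genes had a median log2 fold change (log2FC) of 5.55, beside -0.01 over all tested genes, and 6.40 with LPS mouse 1 alone. For each of the 6 genes the 3 LPS mice lay outside the range of the 3 control mice, as they did for 72.0% of all tested genes. Dual-treated mice did not overlap control mice for 52.2% of all tested genes, nor LPS mice for 70.8%. With LPS mouse 1 as the only LPS library, the same 5 genes were called higher, and *Cxcl15* was no longer called. Scaling by library size alone gave 4336 genes higher and 7832 lower, so that 35.6% of the called genes were higher, beside 49.0% with TMM, and its median over all genes was -0.29.

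Lungs given YW3-56 before LPS were lower than LPS lungs in 5 of the 6 transcripts, all but *Cxcl15*. In this comparison 27.4% of the tested genes were lower and 31.7% higher. Scaling by library size alone gave 7889 higher and 3225 lower, so that 71.0% of the called genes were higher, beside 53.6% with TMM, and its median over all genes was 0.38. The median log2FC of the 5 ELR genes was -3.18, beside 0.06 over all tested genes, and -4.03 with LPS mouse 1 alone. Against control, the dual-treated lungs were higher in 3 of the 6, *Cxcl1*, *Cxcl3* and *Cxcl5*, where 9.13% of the tested genes were higher and 7.02% lower, and the median of the 5 ELR genes was 2.37. That median depended on dual-treated mouse 2. Without this mouse the log2FC against control was 1.61 for *Cxcl1*, 0.61 for *Cxcl2*, 1.95 for *Cxcl3*, 0.63 for *Cxcl5* and -0.44 for *Cxcl15*. The comparisons of LPS and of dual-treated lungs with control use the same 3 control mice, so their values are set side by side and not counted as independent. All 6 genes passed the filter on low counts. *Cxcl3* met it through the LPS and dual-treated lungs, since 1 of its 3 control libraries reached the filter's level and 2 were needed. That level is 0.504 CPM before TMM scaling, a scale on which *Cxcl5* reached it in 2 control libraries. Counted without *Cxcl3*, 3 of 4 ELR genes rose with LPS and 2 of 4 were higher after the dual treatment than in control, with medians of 5.08 and 1.67. With no filter at all the log2FC of *Cxcl3* over control was 6.83 for LPS and 2.75 for the dual treatment, given as a description.

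**Figure D1:**
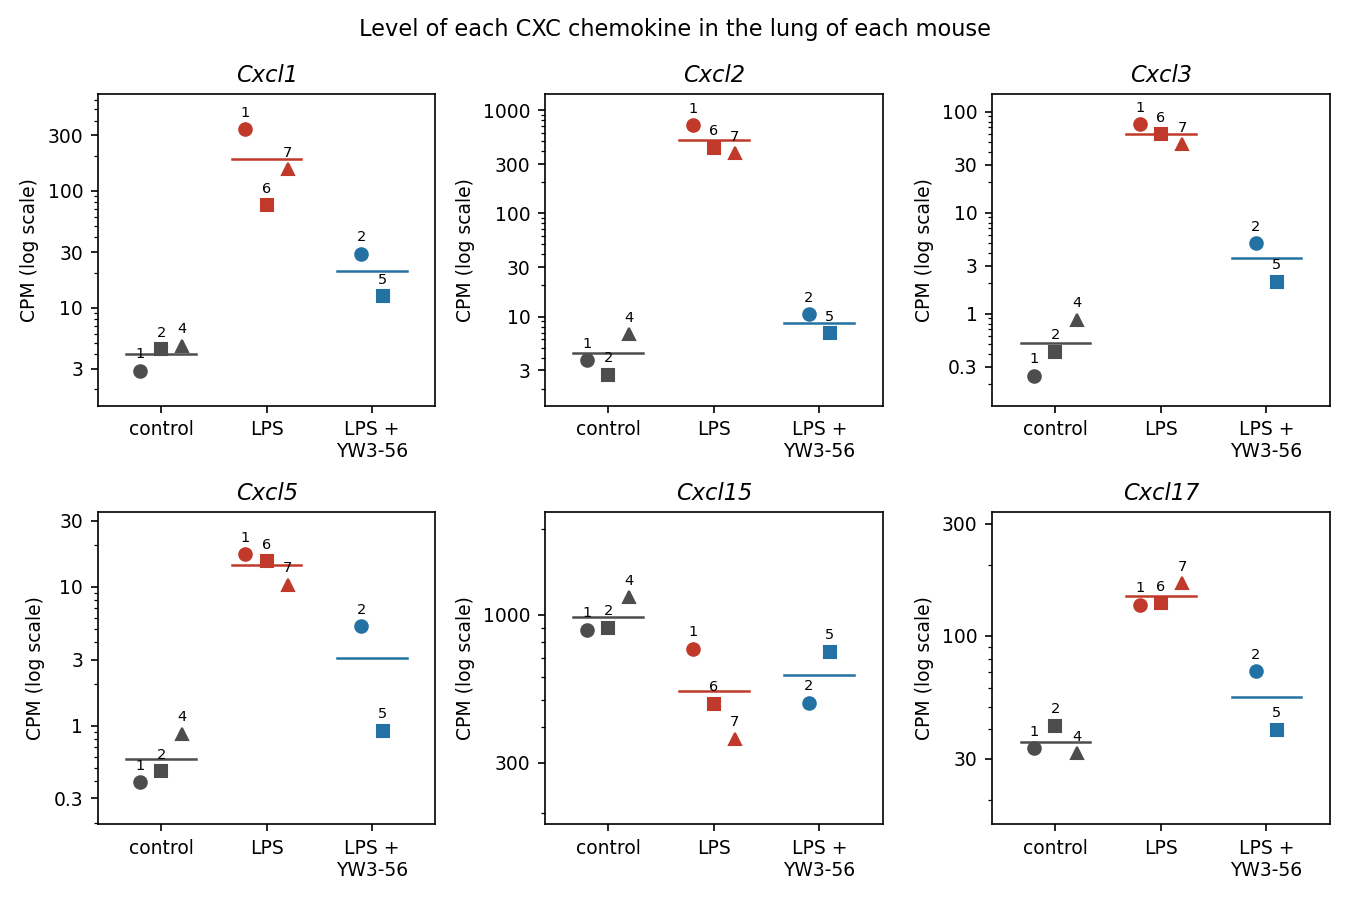
Level of each of the 6 transcripts in each mouse, in TMM-scaled CPM on a log axis that differs between panels. Points are single mice, labelled with their numbers, and lines are group means.

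*Cxcl1* encodes KC, a ligand of CXCR2 made by many cell types soon after an inflammatory signal. It had 2.89, 4.41 and 4.74 CPM in control mice 1, 2 and 4, then 338, 75.2 and 153 CPM in LPS mice 1, 6 and 7, and 29.1 and 12.6 CPM in dual-treated mice 2 and 5. The 3 groups did not overlap, and the LPS mice spread widely, with mouse 1 more than 4 times as high as mouse 6. *Cxcl1* was 46.9-fold higher in LPS than in control (log2FC 5.55, SE 0.60, edgeR quasi-likelihood Benjamini-Hochberg adjusted p = 3.33e-05). Dual-treated lungs were below LPS lungs by a log2FC of -3.18 (SE 0.61, edgeR quasi-likelihood Benjamini-Hochberg adjusted p = 0.0017) and above control by 2.37 (SE 0.60, adjusted p = 0.0261 from the same test). LPS mouse 1 carried part of these differences. Without it the log2FC was 4.83 against control and -2.46 between dual-treated and LPS lungs, and with it alone 6.40 and -4.03, all of them called. Without dual-treated mouse 2 the latter comparison gave -3.92. The call against control in dual-treated lungs was lost without control mouse 1, 2 or 4 (log2FC 2.18, 2.44 and 2.48) and without dual-treated mouse 2 (log2FC 1.61), with edgeR adjusted p from 0.0665 to 0.213.

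*Cxcl2* encodes a close relative of *Cxcl1* that also acts on CXCR2 and is made largely by myeloid cells. Control mice 1, 2 and 4 had 3.77, 2.72 and 6.76 CPM, LPS mice 1, 6 and 7 had 718, 434 and 385 CPM, and dual-treated mice 2 and 5 had 10.6 and 6.89 CPM. Dual-treated mouse 5 lay just above the highest control mouse, and both dual-treated mice lay far below each LPS mouse. *Cxcl2* was 116-fold higher in LPS than in control (log2FC 6.85, SE 0.40, edgeR quasi-likelihood Benjamini-Hochberg adjusted p = 1.33e-06) and 58.6-fold lower in dual-treated than in LPS lungs (log2FC -5.87, SE 0.46, adjusted p = 1.14e-05 from the same test). Against control the dual-treated lungs did not pass the test (log2FC 0.98, 95% interval 0.10 to 1.86, edgeR quasi-likelihood Benjamini-Hochberg adjusted p = 0.123). The 2 groups did not overlap, as was so for 52.2% of all tested genes. Without control mouse 4 that difference passed the test (log2FC 1.40, edgeR adjusted p = 0.0475). With LPS mouse 1 alone in the LPS group the log2FC was 7.34 against control and -6.37 between dual-treated and LPS lungs.

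*Cxcl3* encodes the third of these related CXCR2 ligands. Its counts were low in control lungs, at 5, 9 and 19 in mice 1, 2 and 4, which is 0.245, 0.422 and 0.874 CPM. In LPS mice 1, 6 and 7 it had 75.0, 59.7 and 47.5 CPM, and in dual-treated mice 2 and 5 it had 4.99 and 2.06 CPM. No group overlapped another, and the order of the LPS mice was that seen for *Cxcl2*. *Cxcl3* lay above control in LPS lungs by a log2FC of 6.85 (SE 0.43). Control lungs did not meet the filter for this gene, so its values over control are given as a description, without a p-value. The counts of ELR genes called over control are given above with and without it. Dual-treated lungs lay 17.2-fold below LPS lungs (log2FC -4.11, SE 0.41, edgeR quasi-likelihood Benjamini-Hochberg adjusted p = 4.1e-05). They lay above control by a log2FC of 2.75 (SE 0.49), a description for the same reason. The fold over control moved with single mice. Without control mouse 4 the log2FC was 7.47 for LPS and 3.34 for the dual treatment. Without dual-treated mouse 2 it was 1.95 against control and -4.90 against LPS. With LPS mouse 1 alone the values were 7.17 against control and -4.42 between dual-treated and LPS lungs. *Cxcl1*, *Cxcl2* and *Cxcl3* are similar in sequence, and how reads with more than 1 place in the genome were counted was not stated, so reads could have been divided between them or lost.

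*Cxcl5* encodes an ELR chemokine known from alveolar epithelium and platelets. Control mice 1, 2 and 4 had 8, 10 and 19 counts, or 0.391, 0.469 and 0.874 CPM. LPS mice 1, 6 and 7 had 17.3, 15.3 and 10.4 CPM, and dual-treated mice 2 and 5 had 5.22 and 0.922 CPM. The dual-treated mice were far apart, with mouse 5 just above the highest control mouse and mouse 2 at 68.3% of the way from the control to the LPS mean on the log2 scale. LPS lungs were 24.4-fold higher than control (log2FC 4.61, SE 0.60, edgeR quasi-likelihood Benjamini-Hochberg adjusted p = 0.000114), and 4.88 on the log2 scale with LPS mouse 1 alone. Dual-treated lungs were lower than LPS lungs (log2FC -2.22, SE 0.59, edgeR quasi-likelihood Benjamini-Hochberg adjusted p = 0.00977) and higher than control (log2FC 2.39, SE 0.64, adjusted p = 0.0343 from the same test). Without dual-treated mouse 2 these values became -3.97 and 0.63, and the second was no longer called (edgeR adjusted p = 0.55). Without dual-treated mouse 5 they became -1.48 and 3.12. With LPS mouse 1 alone the first was -2.50 (edgeR adjusted p = 0.0283). The call against control was also lost without control mouse 1, 2 or 4 (log2FC 2.18, 2.25 and 2.79, edgeR adjusted p from 0.0596 to 0.11), with LPS mouse 1 alone in the LPS group (edgeR adjusted p = 0.0515) and when only the 2 groups compared were fitted (edgeR adjusted p = 0.0514).

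*Cxcl15* had the highest CPM of the 6 in every mouse but LPS mouse 7, where *Cxcl2* was higher, and it was the only one to fall with LPS. Control mice 1, 2 and 4 had 886, 899.8 and 1149 CPM, LPS mice 1, 6 and 7 had 758, 485 and 364 CPM, and dual-treated mice 2 and 5 had 488 and 738 CPM. Each LPS and each dual-treated mouse lay below the lowest control mouse, and the dual-treated mice lay within the range of the LPS mice. *Cxcl15* fell by 0.87 on the log2 scale with LPS (SE 0.26, 1.83-fold lower, edgeR quasi-likelihood Benjamini-Hochberg adjusted p = 0.0152). The call was lost with LPS mouse 1 alone (log2FC -0.36, edgeR adjusted p = 0.26), without LPS mouse 6 (-0.80, edgeR adjusted p = 0.0528) and without control mouse 4 (-0.74, edgeR adjusted p = 0.0513). It was kept without LPS mouse 7 (-0.65, edgeR adjusted p = 0.0414) and without LPS mouse 1 (-1.20). In dual-treated lungs the log2FC was -0.67 against control (95% interval -1.34 to -0.0048, edgeR quasi-likelihood Benjamini-Hochberg adjusted p = 0.161) and 0.20 against LPS (95% interval -0.46 to 0.85, edgeR quasi-likelihood Benjamini-Hochberg adjusted p = 0.584), neither of them called. The sign of the last value turned to -0.03 without LPS mouse 7, to -0.15 without dual-treated mouse 5 and to -0.31 with LPS mouse 1 alone.

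The 8 listed markers of alveolar type 2 cells summed to 38901, 32707 and 40869 CPM in control mice 1, 2 and 4, to 29442, 21131 and 17312 CPM in LPS mice 1, 6 and 7, and to 21625 and 31957 CPM in dual-treated mice 2 and 5. Of these markers 6 fell and 1, *Sftpd*, rose with LPS, none was called between dual-treated and control lungs by the same test, and 3 lay above LPS lungs in the dual-treated group. Over all tested genes 33.9% fell and 32.6% rose with LPS, 9.13% were higher and 7.02% lower after the dual treatment than in control, and 31.7% were higher than after LPS alone. *Sftpc* was the most abundant of the 8 and none was at 0 in any library. The part of these cells in the fall of *Cxcl15* was not tested.

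*Cxcl17* had 33.3, 41.5 and 31.6 CPM in control mice 1, 2 and 4, 136, 138 and 168 CPM in LPS mice 1, 6 and 7, and 70.5 and 39.8 CPM in dual-treated mice 2 and 5. The LPS mice were close together and well above all others, while dual-treated mouse 5 fell inside the control range and mouse 2 lay between control and LPS. LPS lungs were 4.14-fold higher than control (log2FC 2.05, SE 0.21, edgeR quasi-likelihood Benjamini-Hochberg adjusted p = 2.07e-05), and with LPS mouse 1 alone the log2FC was 1.94. Dual-treated lungs were 2.67-fold lower than LPS lungs (log2FC -1.41, SE 0.23, edgeR quasi-likelihood Benjamini-Hochberg adjusted p = 0.000653), or -1.31 on the log2 scale with LPS mouse 1 alone. Against control they had a log2FC of 0.64 (95% interval 0.14 to 1.13) that did not pass the test (edgeR quasi-likelihood Benjamini-Hochberg adjusted p = 0.0811). That value depended on which dual-treated mouse was kept, at 0.96 without mouse 5 (called, edgeR adjusted p = 0.00631) and 0.14 without mouse 2 (edgeR adjusted p = 0.747), and DESeq2 called the difference with all mice (log2FC 0.62, DESeq2 adjusted p = 0.0413). *Cxcl17* lies inside the span of a long noncoding gene on the opposite strand, and the strand setting of the counting was not stated, so it is not known whether reads of the 2 genes were separated.

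Markers of airway epithelium are set beside *Cxcl17*, a gene of mucosal surfaces. The 7 club and secretory cell markers summed to 31890, 40490.4 and 37291 CPM in control mice 1, 2 and 4, 71102, 62285 and 61436 CPM in LPS mice 1, 6 and 7, and 24779 and 26741 CPM in dual-treated mice 2 and 5, with *Scgb1a1* the most abundant. With LPS 6 of the 7 rose and *Cyp2f2* fell, and in dual-treated lungs 6 were lower than in LPS lungs and 3 were lower than in control. The 5 ciliated cell markers summed to 236 to 316 CPM in control, 383 to 473 CPM in LPS and 296 and 248 CPM in dual-treated mice 2 and 5, 3 of them rose with LPS, and 4 were lower after the dual treatment than after LPS alone. Over all tested genes 32.6% rose with LPS, and for the dual treatment 27.4% were lower than LPS and 7.02% lower than control. No marker of either list was at 0 in any library. Their part in the change of *Cxcl17* was not tested.

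**Figure D2:**
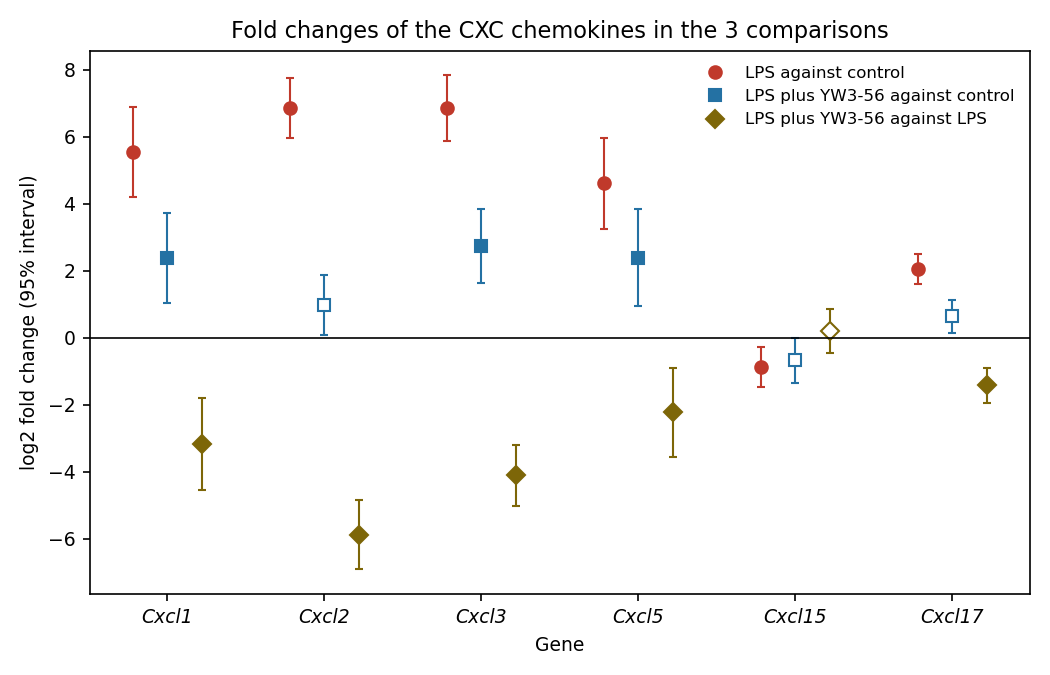
Log2FC of each transcript in the 3 comparisons, with 95% intervals from edgeR's quasi-likelihood fit. Filled symbols had a Benjamini-Hochberg adjusted p under 0.05 and open symbols did not. For *Cxcl3* control lungs did not meet the filter, so its values over control are a description.

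Levels of different genes were compared per kilobase of merged exons. In control lungs *Cxcl15* was at 460 ± 69.7 CPM per kilobase (SD, n = 3) and *Cxcl17* at 39.2 ± 5.82. *Cxcl2* at 2.14 ± 1.01 and *Cxcl1* at 2.13 ± 0.525 CPM per kilobase overlapped, as did *Cxcl5* at 0.305 ± 0.137 and *Cxcl3* at 0.147 ± 0.0927. In LPS lungs *Cxcl15* at 252 ± 95 and *Cxcl2* at 248 ± 87.0 CPM per kilobase (SD, n = 3) overlapped, and so did *Cxcl17* at 162 ± 19.6 and *Cxcl1* at 100.4 ± 71.8. The range of *Cxcl15* also overlapped those of *Cxcl17* and *Cxcl1*, and in LPS mouse 7 *Cxcl2* at 186 and *Cxcl17* at 185 CPM per kilobase were above *Cxcl15* at 171. *Cxcl3* at 17.4 ± 3.94 and *Cxcl5* at 7.55 ± 1.87 CPM per kilobase stayed below these, apart from each other. The order after the dual treatment was *Cxcl15* at 288 ± 83.1, *Cxcl17* at 60.9 ± 24, *Cxcl1* at 11.1 ± 6.21 and *Cxcl2* at 4.22 ± 1.26 CPM per kilobase (SD, n = 2), with *Cxcl5* at 1.62 ± 1.60 and *Cxcl3* at 1.01 ± 0.592 overlapping. *Cxcl1* and *Cxcl2* thus had nearly the same mean in control, *Cxcl2* was above *Cxcl1* in each LPS mouse, and *Cxcl1* was above *Cxcl2* in each dual-treated mouse. In LPS mouse 1 alone the order was *Cxcl15* at 357, *Cxcl2* at 347, *Cxcl1* at 180, *Cxcl17* at 149.9, *Cxcl3* at 21.4 and *Cxcl5* at 9.11 CPM per kilobase. The annotated exons of *Cxcl3* span 3498 bases, the longest of the 6, and its level per kilobase would be higher over a shorter transcript.

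The make-up of the 6 transcripts differed between the groups. *Cxcl15* made 91.2 ± 1.71% of their summed CPM per kilobase in control lungs (SD, n = 3), 31.6 ± 4.39% with LPS (SD, n = 3) and 77.7 ± 12.2% after the dual treatment (SD, n = 2). *Cxcl2* made 0.413 ± 0.142%, 31.2 ± 1.98% and 1.18 ± 0.502% in the same order of groups, and *Cxcl1* 0.422 ± 0.0806%, 11.9 ± 5.44% and 3.16 ± 2.12%. *Cxcl17* made 7.91 ± 1.84%, 22.0 ± 7.41% and 17.2 ± 8.84%. The shares of *Cxcl2* in the LPS mice lay close together, at 32.6%, 32.0% and 28.9% in mice 1, 6 and 7, while those of *Cxcl1* ran from 6.10% to 16.9%. Summed over the 6 genes, the level per kilobase was 457 to 582 in control, 1064, 655 and 643 in LPS mice 1, 6 and 7, and 332 and 402 in dual-treated mice 2 and 5. Both dual-treated lungs were below each control lung in this sum, in which *Cxcl15* has the largest share. Without *Cxcl15* the summed CPM was 40.6 to 49.5 in control, 722 to 1284 in LPS and 120.4 and 62.3 in dual-treated mice 2 and 5.

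**Figure D3:**
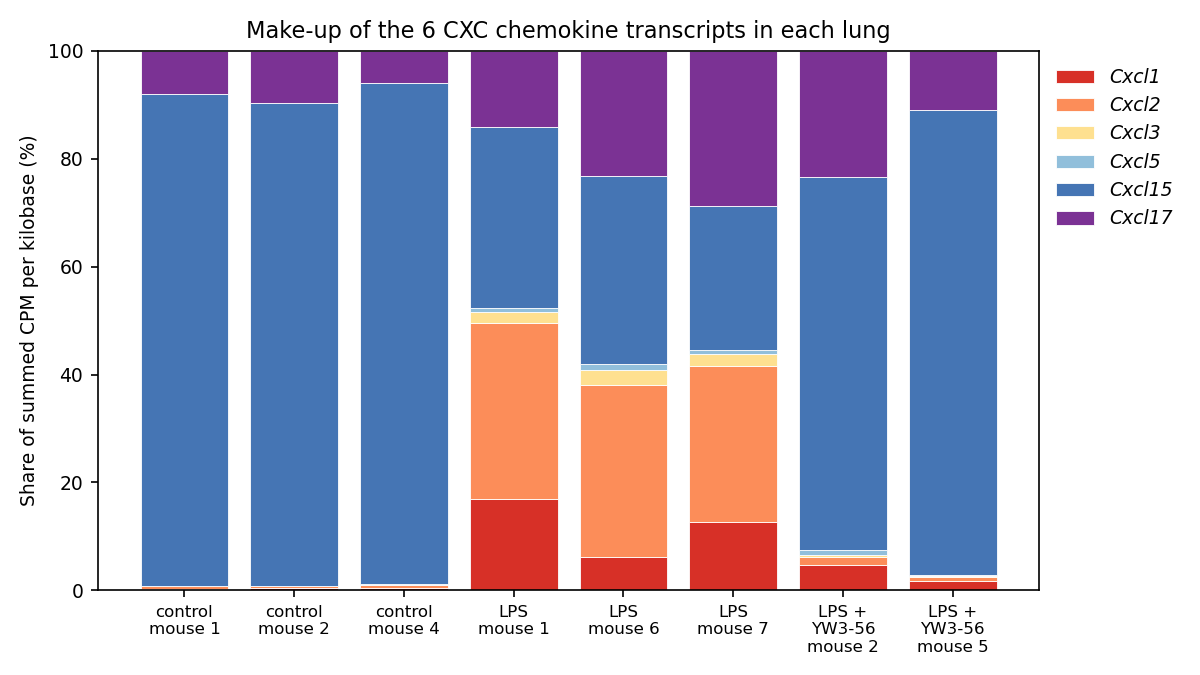
Share of each of the 6 transcripts in their summed CPM per kilobase of merged exons, in percent, with 1 bar per mouse. *Cxcl15* takes 89.5% to 92.9% in the control mice, 26.6% to 34.8% in the LPS mice, and 69.1% and 86.3% in dual-treated mice 2 and 5.

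The 2 dual-treated mice were not alike. On the log2 CPM scale, with 0% at the control mean and 100% at the LPS mean, mouse 2 lay at 54.0% for *Cxcl1*, 19.5% for *Cxcl2*, 47.3% for *Cxcl3*, 68.3% for *Cxcl5* and 48.7% for *Cxcl17*. Mouse 5 lay at 31.2% for *Cxcl1*, 10.6% for *Cxcl2*, 29.0% for *Cxcl3*, 14.8% for *Cxcl5* and 8.59% for *Cxcl17*. For *Cxcl15*, where the LPS mean lies below the control mean, they lay at 107% and 42.7%. Mouse 2 thus had a higher percentage than mouse 5 for 6 of 6 genes, as it had for 69.8% of the 12346 genes called between LPS and control. This share compares positions, so it also counts genes for which mouse 2 lay beyond the LPS mean. With LPS mouse 1 alone at 100%, mouse 2 was nearer to 100% than mouse 5 for 5 of 6 genes. For *Cxcl15* mouse 5 was nearer, with mouse 2 at 278% and mouse 5 at 111%. *Cxcl2* was nearest to control of the 5 induced genes in mouse 2, and in mouse 5 *Cxcl17* and *Cxcl2* were.

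The receptor *Cxcr2*, through which the ELR chemokines act on neutrophils, rose in both treated groups. It had 7.58, 3.00 and 3.63 CPM in control mice 1, 2 and 4, 17.1, 14.0 and 9.49 CPM in LPS mice 1, 6 and 7, and 27.0 and 48.3 CPM in dual-treated mice 2 and 5. No group overlapped another and the dual-treated mice were the highest. The log2FC was 1.52 for LPS against control, 2.99 for dual-treated against control and 1.48 for dual-treated against LPS (edgeR quasi-likelihood Benjamini-Hochberg adjusted p = 0.00547, 0.00139 and 0.00863). *Cxcl1*, *Cxcl2*, *Cxcl3* and *Cxcl5* were thus lower, and *Cxcr2* was higher, after the dual treatment than after LPS alone.

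*Ackr1*, an atypical receptor of venules that binds many chemokines without signalling, had 3, 8 and 2 counts in control mice 1, 2 and 4. It had 25.0, 36.8 and 25.7 CPM in LPS mice 1, 6 and 7, and 11.3 and 3.51 CPM in dual-treated mice 2 and 5. It met the filter in LPS and dual-treated but not in control lungs, so no fold over control is given. Dual-treated lungs were lower than LPS lungs (log2FC -1.98, edgeR quasi-likelihood Benjamini-Hochberg adjusted p = 0.00412). *Gpr35*, proposed as a receptor of CXCL17, rose with LPS (log2FC 1.16, edgeR quasi-likelihood Benjamini-Hochberg adjusted p = 0.00219) and was higher in dual-treated lungs than in control (log2FC 1.60, adjusted p = 0.00371 from the same test). *Cxcr1*, the other neutrophil receptor of ELR chemokines, was near the limit of counting, with 14, 9 and 12 counts in control mice 1, 2 and 4, 0, 0 and 1 in LPS mice 1, 6 and 7, and 0 and 12 in dual-treated mice 2 and 5. It met the filter in control lungs only, so no test of it is reported.

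The neutrophil marker sum was high in both treated groups, but not every marker was above control after the dual treatment. The 15 listed markers, which include *Cxcr2*, summed to 357, 285 and 206 CPM in control mice 1, 2 and 4, 3128, 4085 and 2823 CPM in LPS mice 1, 6 and 7, and 2269 and 2689 CPM in dual-treated mice 2 and 5, with the highest mean for *S100a9* and none at 0. Markers under the filter's level in 1 of the 2 groups compared were set aside, which concerned *Elane*, *Ly6g* and *Mpo*. With LPS 13 of 13 rose, where 32.6% of all tested genes did, and in dual-treated lungs 10 of 12 were above control, where 9.13% of all tested genes were. Between dual-treated and LPS lungs 4 of 13 were higher and 5 lower, where 31.7% and 27.4% of all tested genes were. The 4 were *Retnlg*, *Csf3r*, *Cxcr2* and *Mmp8*, and the 5 were *Ly6g*, *Cd177*, *Camp*, *Ltf* and *Il1r2*. Of the markers set aside here, *Elane* had 4.69 to 6.99 CPM in LPS and 0.454 and 0.22 CPM in dual-treated mice 2 and 5, and *Mpo* had 6.87 to 10.3 CPM in LPS and 0.318 and 0.615 CPM in these mice. *Ltf*, a granule protein gene, had 52.7 to 136 CPM in control, 298 to 480.1 CPM in LPS and 126 and 46.8 CPM in dual-treated mice 2 and 5. Dual-treated mouse 5 had the lower levels of the 4 inducible ELR chemokines and the larger marker sum. That sum was carried by *S100a8*, at 511 and 712 CPM, and *S100a9*, at 832 and 1171 CPM in dual-treated mice 2 and 5. *Elane*, *Cd177*, *Camp*, *Ngp*, *Ltf* and *Il1r2* were lower in mouse 5 than in mouse 2, and the other listed markers were higher. The part of neutrophil RNA in the chemokine levels was not tested.

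Platelets carry other CXC ligands. *Ppbp* encodes the platelet precursor of a CXCR2 ligand, and *Pf4* a platelet CXC chemokine without the ELR letters. *Ppbp* had 17.6, 12.2 and 32.1 CPM in control mice 1, 2 and 4, 57.0, 30.7 and 20.7 CPM in LPS mice 1, 6 and 7, and 4.45 and 13.7 CPM in dual-treated mice 2 and 5. The groups overlapped except that both dual-treated mice lay below the LPS mice, and that difference was called (log2FC -1.99, edgeR quasi-likelihood Benjamini-Hochberg adjusted p = 0.0161). *Pf4* was above control by 0.67 in LPS and by 1.12 in dual-treated lungs (edgeR quasi-likelihood Benjamini-Hochberg adjusted p = 0.0441 and 0.0262). The 5 platelet markers, which include both genes, summed to 58.3 to 126 CPM in control, 124 to 223 CPM in LPS and 73.7 and 134 CPM in dual-treated mice 2 and 5, with the highest mean for *Itga2b* and *Gp1bb* at 0 in every library. Of the 4 tested, 2 rose with LPS and 2 were lower after the dual treatment than after LPS alone, beside 32.6% and 27.4% of all tested genes.

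The signals that induce these chemokines were counted in lists. Over all tested genes 32.6% rose and 33.9% fell with LPS, 9.13% were higher and 7.02% lower after the dual treatment than in control, and 31.7% were higher and 27.4% lower than after LPS alone, with medians of -0.01, 0.00 and 0.06 for the 3 comparisons. These shares and medians apply to each list below. Of 9 genes of the LPS receptor complex and its adaptors, 6 rose and 1, *Tlr4*, fell with LPS. The LPS co-receptor gene *Cd14* had the highest log2FC of the list, at 4.17, and the median was 0.73. In dual-treated lungs 4 of the 9 were above control, and 4 were lower and 2 higher than in LPS lungs, from -2.50 for *Cd14* to 0.95 for the kinase gene *Irak4*, with a median of -0.20. Of 8 inducing cytokines, *Il17a*, *Il17c* and *Il17f* met the filter in LPS lungs only and were set aside. Of the other 5, 5 rose with LPS, with a median of 3.28, and 4 were lower in dual-treated than in LPS lungs, with a median of -1.61. *Il17a* had 0, 0 and 1 counts in control, 426, 36 and 41 in LPS mice 1, 6 and 7, and 2 and 0 in dual-treated mice. *Il17f* had 492, 62 and 101 counts in these LPS mice and at most 2 in any other library. *Il17c* had 2, 2 and 3 counts in control mice 1, 2 and 4, 17, 14 and 24 in LPS mice 1, 6 and 7, and 6 and 8 in dual-treated mice 2 and 5. Against control 2 of the 5 cytokines were higher in dual-treated lungs, *Il1b* and *Osm*, with a log2FC of 2.12 for *Il1b*. *Tnf* had the lowest log2FC with LPS, at 0.89.

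Of 8 receptor genes for these cytokines, 6 rose with LPS, led by *Il17ra* at 2.63, and *Il17rc* fell by 0.38 on the log2 scale, with a median of 1.02. In dual-treated lungs 6 were below LPS, the lowest being *Osmr* at -2.40, with a median of -0.54, and against control 2 were higher, led by *Tnfrsf1b* at 1.63, and *Il6ra* was lower at -0.40. Of 11 genes of NF-kB subunits and their inhibitors, 11 rose with LPS, from 0.68 for *Nfkb1* to 4.84 for *Tnfaip3*, the A20 feedback inhibitor, with a median of 2.53. All 11 were lower in dual-treated than in LPS lungs, from -2.83 for the subunit gene *Rel* to -0.59 for *Nfkb1*, with a median of -1.34, and 6 of the 11 were above control.

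Of 8 genes that set the stability of chemokine transcripts, 6 rose with LPS, with a median of 0.90, and 8 were lower in dual-treated than in LPS lungs, with a median of -0.77. *Zc3h12a*, which encodes a nuclease that degrades inflammatory transcripts, had the highest log2FC with LPS, at 4.05, and the lowest between dual-treated and LPS lungs, at -2.86. Against control *Zc3h12a* was higher by 1.18 in dual-treated lungs and *Zfp36l1* fell by 0.69. Of 6 proteases that trim or degrade CXC chemokines, 3 of which are also in the neutrophil list, *Elane* and *Ctsg* were set aside for LPS against control because control lungs did not meet the filter, and 3 of the other 4 rose, with a median of 2.81. Between dual-treated and LPS lungs, without *Elane*, 3 of 5 were lower and *Mmp8* was higher by 1.08, with a median of -1.58. Against control 3 of 4 were higher, led by *Mmp8* at 4.14, and the macrophage elastase gene *Mmp12* fell by 2.00. Of 7 genes for the heparan sulfate chains and core proteins that hold chemokines at the cell surface, 4 rose and 3 fell with LPS, with *Sdc2* the lowest and *Sdc4* the highest at 2.03, and 2 were lower in dual-treated than in LPS lungs, the lowest being *Sdc4* at -1.76. Against control 1 of the 7, *Sdc3*, was higher and 2 were lower in dual-treated lungs, the lowest being *Sdc2* at -0.82.

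Markers of the remaining lung cell types are given beside these results. The 7 macrophage markers summed to 931, 656 and 881 CPM in control mice 1, 2 and 4, 897, 979.7 and 500.4 CPM in LPS mice 1, 6 and 7, and 1220.0 and 1947 CPM in dual-treated mice 2 and 5, with *Chil3* the most abundant. With LPS 2 fell and none rose by the same test, and in dual-treated lungs 4 were above control and 5 above LPS. The 6 endothelial markers summed to 3325 to 3813 CPM in control, 1691 to 2068 CPM in LPS and 3179 and 3609 CPM in dual-treated mice 2 and 5, with the highest mean for *Cdh5*. Of these 4 fell with LPS, 4 were higher after the dual treatment than after LPS alone, and against control 1 was higher and 1 lower. The 6 alveolar type 1 markers summed to 4775 to 5052 CPM in control, 2115 to 3581 CPM in LPS and 2573 and 3533 CPM in dual-treated mice 2 and 5, with *Ager* the most abundant. Of these 4 fell with LPS, 4 were higher and *Ager* was lower after the dual treatment than after LPS alone, and 2 were lower than in control. No marker of these 3 lists was at 0 in any library. The part of these cells in the chemokine levels was not tested.

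For *Cxcl1*, *Cxcl2*, *Cxcl3*, *Cxcl15* and *Cxcl17*, the 3 genes with the highest Pearson r of log2 CPM over the 8 libraries were taken from 15574 genes with a mean of at least 1 CPM. The 8 points share 3 groups and are not independent, so r is given as a description. The genes most like *Cxcl1* were *Ints14* (r = 0.998), *Runx3* (0.997) and *Med15* (0.995). Those most like *Cxcl2* were the interferon response genes *Irf8* (r = 0.998) and *Igtp* (0.997) and the small GTPase gene *Rhof* (0.998). *Irf8* had 35.3 to 41.0 CPM in control, 149 to 198 CPM in LPS and 51.4 and 47.2 CPM in dual-treated mice 2 and 5. Those most like *Cxcl3* were *Mrps18c*, *Slc35b1* and *Mybbp1a* (each r = 0.996). *Cxcl15* was most like *Lamp3* (r = 0.986), which is in the list of alveolar type 2 markers, then *Clec1b* (0.983) and *Stk16* (0.974). *Cxcl17* was most like *Nek2* (r = 0.997), *Spats2* (0.996) and *Adamdec1* (0.994).

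In the GENCODE M39 annotation of GRCm39, 5 of the 6 genes lie on chromosome 5 and on the plus strand. From lower to higher coordinates these are *Cxcl5* (90907186 to 90909483), then the platelet genes *Ppbp* and *Pf4*, *Cxcl3* (90933962 to 90937459), *Cxcl15* (90942393 to 90950926), *Cxcl1* (91039094 to 91040974) and *Cxcl2* (91051730 to 91053797). *Cxcl17* lies on chromosome 7 (25099478 to 25112457, minus strand). *Cxcl15* thus lies between *Cxcl3* and *Cxcl1*, both of which rose with LPS while it fell. *Cxcl5* overlaps an antisense noncoding gene in this annotation, and as for *Cxcl17* it is not known whether the counting separated the strands.

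Promoters of the cluster genes are shown side by side, and the windows were compared with the results above known. RefSeq windows from 250 bases before to 50 bases after the gene start, in build GRCm38.p6, were matched for 4 of the 6 genes and not for *Cxcl5* and *Cxcl17*. They were searched on both strands for the kappaB-like letters GGNNTTTCC, for the AP-1 letters TGANTCA and for TATAAA, which occur in 5.82%, 7.81% and 13.6% of 32851 such windows. The stretches printed are the 95 bases that end 21 bases before the start on the plus strand, at chr5:90891130-90891224 for *Cxcl1*, chr5:90903784-90903878 for *Cxcl2*, chr5:90785986-90786080 for *Cxcl3* and chr5:90794419-90794513 for *Cxcl15*, and capitals mark the kappaB-like letters on either strand.
Cxcl1: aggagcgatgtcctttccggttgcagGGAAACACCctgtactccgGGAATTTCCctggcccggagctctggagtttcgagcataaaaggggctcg
Cxcl2: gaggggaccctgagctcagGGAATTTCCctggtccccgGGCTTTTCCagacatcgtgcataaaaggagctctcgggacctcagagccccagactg
Cxcl3: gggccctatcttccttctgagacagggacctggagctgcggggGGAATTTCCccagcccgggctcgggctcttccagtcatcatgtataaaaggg
Cxcl15: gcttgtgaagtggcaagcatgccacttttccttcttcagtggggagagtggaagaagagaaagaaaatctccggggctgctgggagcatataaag
The letters GGAATTTCC begin 70, 96 and 72 bases before the start of *Cxcl1*, *Cxcl2* and *Cxcl3*. *Cxcl1* holds another match on the opposite strand from 89 bases before the start, and *Cxcl2* another, GGCTTTTCC, from 77 bases before it. The window of *Cxcl15* holds no kappaB-like match. TATAAA begins 30 bases before the start of *Cxcl3* and 27 bases before that of *Cxcl15*, and TGANTCA was found in none of the 4 windows. These are matches of letters and not measured binding sites.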

How the data were processed

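Raw counts per gene were deposited by the authors for each of 8 lung libraries. Per the labels and methods, reads were checked with FastQC 0.11.9, trimmed with Trim Galore, aligned to GRCm39 with HISAT2 2.2.1 and counted with featureCounts 2.0.1. The strand setting, the annotation release and the treatment of multi-mapping reads are not given in the sources used here. Symbols and coordinates came from GENCODE M39, which matched 54749 of 55416 identifiers, and the others held 0.0533% of the counts. In R 4.3.3, edgeR 4.0.16 scaled the counts by TMM, dropped low genes with filterByExpr and fitted the 8 libraries together with group as the only factor (5 residual degrees of freedom), with its quasi-likelihood test, Benjamini-Hochberg adjustment over 18560 genes and a call at adjusted p under 0.05. The study's own test, DESeq2, was run as version 1.42.0. Standard errors came from the log2FC and its F statistic, and log2 CPM used a prior count of 2. No library was identical to another. The procedure was tested on simulated data, and no outcome of that test is reported here.

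The genes named are the 6 chemokines, the receptors and platelet ligands, the genes with the highest or lowest log2FC of each list, the listed genes set aside because 1 of the 2 groups compared did not meet the filter, and the 3 genes most like each chemokine but *Cxcl5*, for which this result is not reported here. A gene named outside this rule, such as *Il17f* in its counts, *Irf8* in its values, *Sftpd*, *Cyp2f2*, *Csf3r*, *Ltf* or the lower neutrophil markers, was chosen after its values were seen. The chemokines and lists were chosen with earlier results of these data known. Alternatives were DESeq2, RLE or library size scaling, no filter or at least 10 counts in every library, only the 2 groups compared, the study's criterion of a fold change over 2 with an unadjusted p under 0.05 (applied here to edgeR's values, where the study used DESeq2), a test against a fold change of 2, leaving out each mouse, LPS mouse 1 alone, the longest transcript as the length, and Spearman's rho for likeness. Protein features were planned but not run. Marker genes with the highest mean are named by their mean over the 8 libraries.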

Additional observations from a re-analysis of the deposited data

How the results depend on the processing

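For the 6 chemokines, 95 alternative log2FC values for LPS against control, 81 for the dual treatment against control and 95 for the dual treatment against LPS kept their direction and their call, out of 100 each. The number of genes called for LPS against control went from 12346 to 7450 with a fold over 2 and an unadjusted p under 0.05, and to 4780 in a test against a fold change of 2. For the dual treatment against control it went from 2997 to 1944 and 368 under these 2 settings and ran from 1220 to 3601 when single mice were left out. For the dual treatment against LPS it went from 10960 to 6554 and 3378. The number of chemokines called for the dual treatment against control went from 3 to 6 without a filter (adding *Cxcl2*, *Cxcl15* and *Cxcl17*), to 1 with at least 10 counts in every library, to 0 in the test against a fold change of 2, and from 1 to 4 when single mice were left out. Where only 1 chemokine was called after leaving out a single mouse, it was *Cxcl3*, and no other was called. The values of *Cxcl3* over control are a description, because control lungs did not meet the filter for it. For the dual treatment against LPS the number of chemokines called went from 5 to 3 with at least 10 counts in every library. It also went to 3 in the test against a fold change of 2, where *Cxcl5* and *Cxcl17* were lost. For LPS against control *Cxcl15* was lost in that test and under the study's criterion, applied to edgeR's values. The stricter filter drops *Cxcl3* and *Cxcl5*, which have control libraries under 10 counts, and for the other shifts the cause was not tested. The log2FC of *Cxcl15* between dual-treated and LPS lungs, 0.20 with all mice, ran from -0.15 to 0.52 when single mice were left out, was -0.03 without LPS mouse 7 and was -0.31 with LPS mouse 1 alone. Leaving out a dual-treated mouse, or keeping LPS mouse 1 alone, leaves 1 mouse in that group, which is then assumed to vary like the others. By Spearman's rho 1 of the 3 genes most like *Cxcl1*, 0 of those most like *Cxcl5* and 1 of those most like *Cxcl17* stayed among the top 3. No paired analysis was possible because the groups share at most 1 mouse number.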
